A study of Mus musculus with 6 samples.

Results

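Endoplasmic reticulum (ER) and integrated stress genes were followed in microglia, brain-resident macrophages, sorted from mice given an antibody against human LILRB4 or a control antibody. The set holds 33 genes chosen by symbol for their roles: ER chaperones, protein disulfide isomerases, the sensors and transcription factors of the unfolded protein response, the machinery of ER-associated degradation, and targets of the transcription factor ATF4. They are 33 of the 55493 genes in the count table. Their symbols matched 34 rows, because Ddit3 is listed under a second identifier (ENSMUSG00000116429) that had 0 reads in every library. Both groups were male ILT Telo Tg x 5XFAD mice, which carry human LILR genes together with the 5XFAD transgenes, an amyloid model whose transgenes are driven in neurons by the Thy1 promoter. Injections into the peritoneum began at 4 months of age and were given weekly for 8 weeks at 60 mg/kg. One group received ZM3.1, an Fc-mutant antibody against LILRB4 (also named ILT3, an inhibitory receptor of myeloid cells), and the other received 27D6, an Fc-mutant control antibody (Ctrl IgG2a). RNA from sorted CD45-low CD11b+ brain cells gave 3 libraries per group. The labels do not state that each library came from a separate animal, and every p-value refers to the spread among libraries, which may be technical.

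Proteins that enter the ER are folded by chaperones such as BiP, the product of Hspa5, and by disulfide isomerases, and those that fail to fold are returned to the cytosol for degradation. When unfolded protein accumulates, the sensors IRE1 (gene Ern1), ATF6 and PERK (gene Eif2ak3) raise chaperone and degradation genes through the factors XBP1 and ATF6 and slow translation through eIF2. Slowed translation favours ATF4, which drives genes of amino acid supply and of the stress response, and other kinases such as those that sense amino acid shortage reach ATF4 without the ER. Microglia secrete and take up much protein, and this system runs in them at rest as well as under stress. The counts measure mRNA of whole genes, so they report neither the activity of the sensors nor the splicing of Xbp1.

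Total counts were between 39805118 and 56345514 per library. The microglia markers Tmem119 and P2ry12 lay between 3483 and 13650 CPM (read counts relative to the scaled total of the library) over the 6 libraries. Of the 10 genes on the microglia list 3 had an unadjusted p under 0.05 in edgeR, all higher after anti-LILRB4, beside 4.12% of all genes. These were Fcrls, Csf1r and Sall1, with log2 fold changes of 0.46, 0.67 and 0.49. On this list 0 were called, and the median was 0.10. At the same threshold 3 of 9 tested neutrophil markers and 1 of 4 monocyte markers were lower, beside 3.91% of all genes. Of the oligodendrocyte markers 1 of 5 was higher, and the other cell type lists had 0 in either direction. Neutrophil markers varied widely, with a summed level of 133, 1129 and 219 CPM in anti-LILRB4 libraries 1, 2 and 3 and of 1334, 571 and 611 CPM in control libraries 1, 2 and 3. Immediate early and dissociation genes summed to between 396 and 414 CPM in anti-LILRB4 libraries and between 494 and 509 CPM in control libraries. Of the 12 tested, 11 had a negative log2 fold change and 0 were called. Their median was -0.56, or -0.41 without control library 1. At an unadjusted p under 0.05 in edgeR 4 were lower and 1 higher, beside 3.91% and 4.12% of all genes. Plasma cells are rich in ER chaperones. Their markers summed to between 90.2 and 100.1 CPM in anti-LILRB4 libraries and between 88.3 and 95.6 CPM in control libraries, and most of that sum was Tnfrsf17 and Prdm1. The defining gene Mzb1 was below 0.4 CPM in all 6, whereas Jchain was at 8.98, 0 and 11.5 CPM in anti-LILRB4 libraries 1, 2 and 3 and at 3.41, 1.81 and 1.55 CPM in control libraries 1, 2 and 3. The part of these cells and genes in the results that follow was not tested.

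Most members differed little between the groups, and 0 were called in the main test described below. Hspa5, Manf and Derl2 had lower mean levels in anti-LILRB4 libraries, and P4hb, which encodes a disulfide isomerase, had a higher one. These are the members with an unadjusted p under 0.05 in edgeR, and the groups of Derl2 overlapped. Without control library 1 the unadjusted p in edgeR was 0.068 for Manf and 0.106 for Derl2. Trib3, Asns, Chac1 and Sesn2, all ATF4 targets, had their highest level in control library 1, and without that library the sign of the difference turned for all of them but Chac1. All 33 members passed the filter on low counts and were tested in a fit of 18210 genes. In edgeR's quasi-likelihood test, with Benjamini-Hochberg adjustment and a threshold of 0.05, 0 members were called, beside 0.0% of all genes; their adjusted p lay between 0.426 and 0.994. At an unadjusted p under 0.05, 3 members were lower and 1 was higher. That is 12.1% of members beside 8.03% of all genes tested in both directions, 3.91% of all genes being lower and 4.12% higher.

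Seen by sign, 21 members had a negative log2 fold change and 12 a positive one, and the share of negative values was 63.6% among members and 50.9% among all genes. The median log2 fold change, anti-LILRB4 minus control, was -0.11 over the members and -0.01 over all genes tested. In 5 members all anti-LILRB4 libraries lay below all controls, as in 7.79% of all genes, and in 1 member they lay above, as in 6.94% of all genes. Together these are 18.2% of members beside 14.7% of all genes. Without control library 1 the members' median was 0.01, 16 members were negative, and 3 had an unadjusted p under 0.05, beside 6.64% of all genes in that fit. Control library 1 held the highest value of 15 members (45.5%), and of 23.0% of all genes. DESeq2 on the same counts called 1 member, P4hb, among 0.546% of genes called higher and 0.553% called lower. The authors' deposited table also has P4hb as the one member under an adjusted p of 0.05, beside 0.981% of its genes with an adjusted p.

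**Figure D1:**
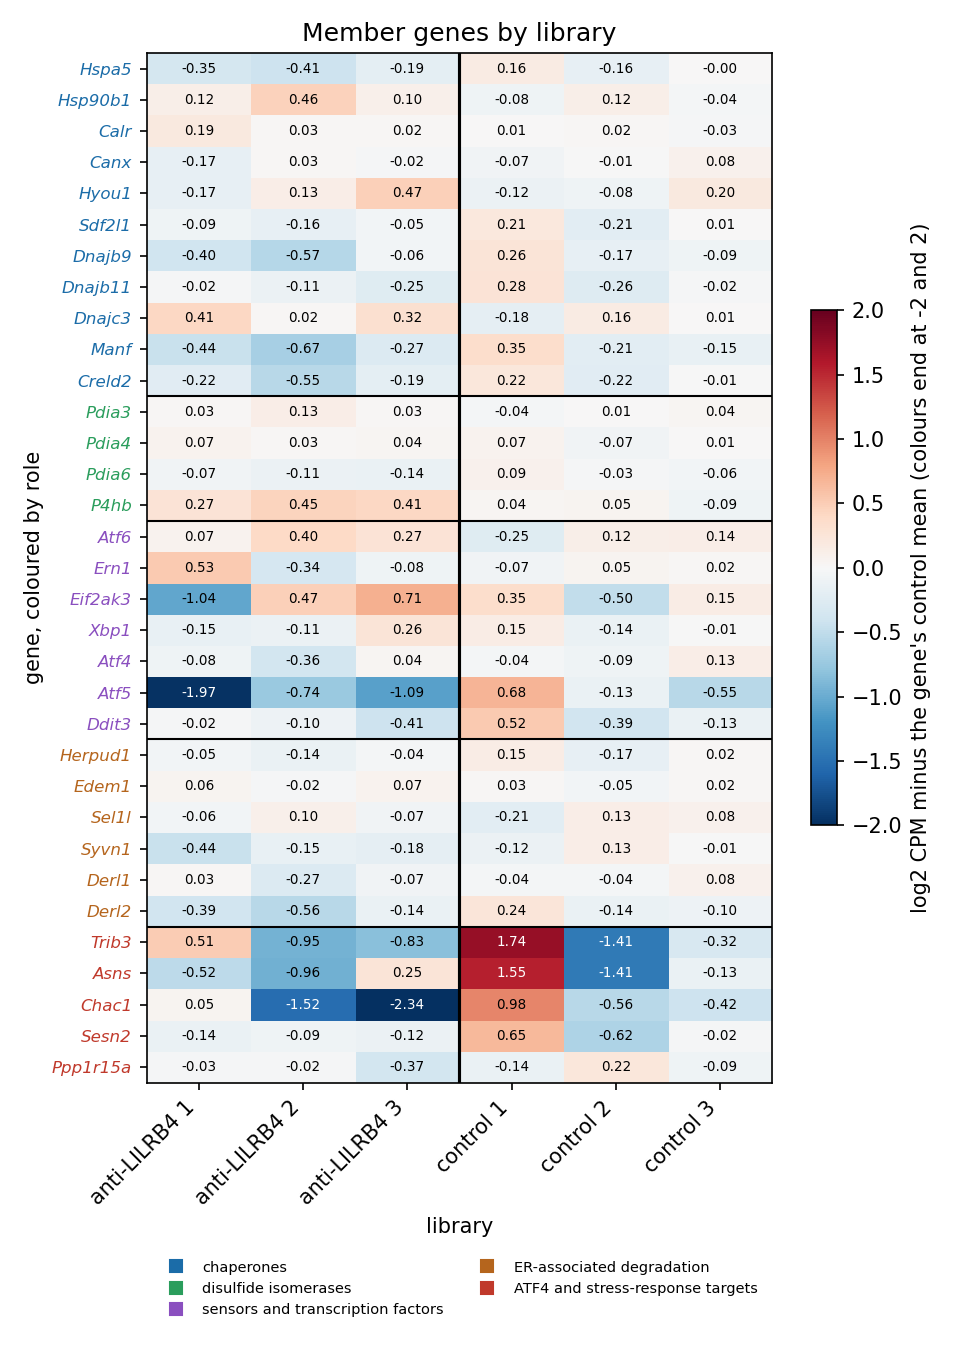
Log2 CPM of the 33 member genes (rows, grouped and coloured by role) in the 6 libraries (columns), each value minus the mean of that gene in the 3 control libraries. Most rows stay within 0.5 of the control mean, whereas Trib3 reached 1.74 and Asns 1.55 in control library 1; colours end at -2 and 2, and Chac1 in anti-LILRB4 library 3, at -2.34, lies beyond.

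Levels between genes are given as CPM per kilobase of merged exons, averaged over the 6 libraries. Merged exons hold every annotated exon, used in these cells or not, so genes with long unused exons are understated. Pdia3 was highest at 391.9 CPM per kilobase, followed by Sdf2l1 at 256, Hspa5 at 230.5, Calr at 206, Herpud1 at 196, Pdia6 at 195 and Canx at 184. In all, 10 members were above 100 CPM per kilobase and 6 were below 2. The 6 low ones were Atf5 at 0.405, Trib3 at 0.808, Eif2ak3 at 1.15, Chac1 at 1.21, Ern1 at 1.28 and Asns at 1.44 CPM per kilobase. They hold 3 of the 5 ATF4 targets; the other two, Sesn2 and Ppp1r15a, were at 4.30 and 7.32 CPM per kilobase. The low genes were among the most variable: 7 members differed over 2-fold between their highest and lowest library, and these were Manf and the 6 low genes except Ern1, together with Sesn2. In contrast, Edem1, Pdia4, Pdia3, Calr, Pdia6 and Canx differed least, by 1.09-fold for Edem1 up to 1.19-fold for Canx.

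Among the 11 chaperones and cofactors 7 had a negative log2 fold change and 4 a positive one, with a median of -0.11 and 0 called. Hspa5 (ENSMUSG00000026864, GRCm38 chromosome 2, 34771970 to 34777547, plus strand) encodes BiP, the central Hsp70 chaperone of the ER. It was measured at 846, 809.7 and 946 CPM in anti-LILRB4 libraries 1, 2 and 3, against 1207, 965 and 1076 CPM in control libraries 1, 2 and 3. Every anti-LILRB4 library lay below every control, although anti-LILRB4 library 3 came close to control library 2. The mean was 867 ± 70.4 CPM after anti-LILRB4 and 1083 ± 121 CPM in controls (SD, n = 3 each), which is -0.32 ± 0.11 (SE) as a log2 fold change. The unadjusted p was 0.0124 and the adjusted p 0.506 in edgeR. Its log2 fold change was -0.24 without control library 1.

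Manf (ENSMUSG00000032575, chromosome 9, 106838312 to 106891979, minus strand) encodes a small ER-resident protein that is secreted under stress and binds BiP. It was at 165.5, 141 and 187 CPM in anti-LILRB4 libraries 1, 2 and 3, against 287.5, 195 and 203 CPM in control libraries 1, 2 and 3. The groups did not overlap, and control library 1 stood well above the other 5. On the log2 scale the difference was -0.47 ± 0.17 (SE) (unadjusted p 0.0169, adjusted p 0.523 in edgeR), and -0.28 without control library 1. The exons of Manf overlap those of Dcaf1, Rbm15b and 4930524O07Rik, and the library kit does not mark strand, so reads there cannot be assigned to 1 of these genes.

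Creld2, a BiP-associated protein with disulfide isomerase activity, and Dnajb9, a J-domain cochaperone that holds the sensor IRE1 in its inactive form, had log2 fold changes of -0.32 and -0.34, with standard errors of 0.15 and 0.16 and overlapping groups. Both had their highest level in control library 1, at 79.5 CPM for Creld2 and 153 CPM for Dnajb9, and without it their log2 fold changes were -0.21 and -0.20. Sdf2l1, which works with BiP and Dnajb11 to keep clients soluble, was at 275, 262 and 283 CPM in anti-LILRB4 libraries and at 338, 253 and 294 CPM in controls. Its log2 fold change was -0.11, or 0.00 without control library 1, and its groups overlapped, with control library 1 the highest and control library 2 the lowest of the 6. Dnajb11 had a log2 fold change of -0.14, and it too was highest in control library 1, without which the value was 0.01.

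The other chaperones did not share this pattern. Hsp90b1, the ER form of Hsp90 (also named GRP94), was at 173, 219 and 170.1 CPM in anti-LILRB4 libraries and at 151, 172.5 and 154 CPM in controls, which is 0.24 ± 0.13 (SE) as a log2 fold change. Here anti-LILRB4 library 2 was the highest, and control library 2 lay among the treated libraries. Calr and Canx encode calreticulin and calnexin, the chaperones that bind sugar chains of new glycoproteins, and their log2 fold changes were 0.08 and -0.05. Dnajc3, a J-domain cochaperone, and Hyou1, an ER exchange factor related to Hsp70, had log2 fold changes of 0.25 and 0.16, again with overlapping groups. The p-values of these 5 genes do not show that their levels were the same.

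**Figure D2:**
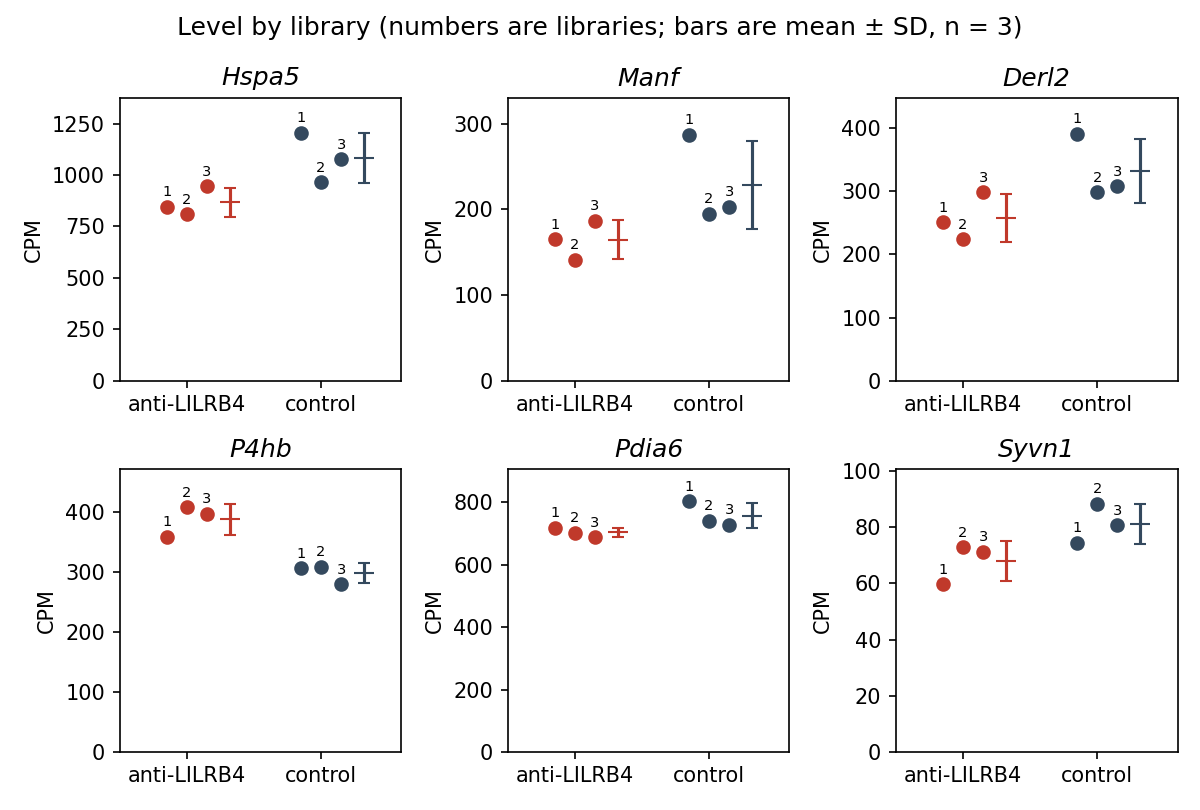
CPM of 6 member genes in each library, anti-LILRB4 on the left and control on the right, with the library number above each point and the mean ± SD (n = 3) beside it. P4hb lies higher in all 3 anti-LILRB4 libraries, and Hspa5, Manf, Pdia6 and Syvn1 lie lower in all 3, while Derl2 of anti-LILRB4 library 3 meets that of control library 2.

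Promoter sequence was not used in choosing the members, but the elements searched are those already known from such genes, Hspa5 among them. A high share among members therefore follows from the choice of genes and elements and is no independent result. RefSeq promoter windows (GRCm38.p6, 250 bases before to 50 after the start site) were at hand for 29 of the 33 members and for 27025 genes in all. Both strands were searched for the ER stress response element ERSE, which is CCAAT, then 9 bases of any kind, then CCACG, and is bound by NF-Y with ATF6. It was found in 8 of the 29 members (27.6%) and in 0.137% of all genes with a window. Of the 8, 6 are among the 11 chaperones, and Pdia6 and Syvn1 are not; the chaperones Dnajb9 and Sdf2l1 had no match to any element searched. The matches are given to let their fixed ends and variable middles be compared, each read 5′ to 3′ from CCAAT with the fixed ends in capitals:
Hspa5: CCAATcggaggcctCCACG
Hsp90b1 upstream match: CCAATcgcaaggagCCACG
Hsp90b1 downstream match: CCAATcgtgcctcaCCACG
Calr: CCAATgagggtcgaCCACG
Canx: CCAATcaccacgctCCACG
Creld2: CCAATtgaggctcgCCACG
Dnajc3: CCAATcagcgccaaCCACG
Pdia6: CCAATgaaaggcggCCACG
Syvn1: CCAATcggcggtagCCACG

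Hsp90b1 had 2 matches on opposite strands that do not overlap each other. Matches in Calr and Creld2 and the downstream one in Hsp90b1 read on the strand opposite to the gene. The windows searched are chr10:86705395-86705694 (minus strand) for Hsp90b1, chr8:84846882-84847181 (minus strand) for Calr, chr11:50325624-50325923 (minus strand) for Canx and chr15:88819396-88819695 (plus strand) for Creld2. Those of the other genes are chr14:118937682-118937981 (plus strand) for Dnajc3, chr12:17266339-17266638 (plus strand) for Pdia6 and chr19:6046326-6046625 (plus strand) for Syvn1. The 250 bases before the start site of Hspa5 are the first part of the window chr2:34771840-34772139 (plus strand) and are given because Hspa5 is the best known target of this element. Its match stands in capitals, from position -65 to -47 counted with the start site as 0, ahead of a TATA-like stretch in lower case:
Hspa5 promoter: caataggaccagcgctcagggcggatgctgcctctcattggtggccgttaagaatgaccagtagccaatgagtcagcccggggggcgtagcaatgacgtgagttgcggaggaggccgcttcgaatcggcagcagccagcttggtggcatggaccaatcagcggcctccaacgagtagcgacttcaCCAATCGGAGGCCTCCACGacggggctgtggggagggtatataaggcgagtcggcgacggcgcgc

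The related element ERSE-II, which is ATTGG, 1 base and CCACG, was found in 2 members (6.9%) and in 0.0444% of genes, with no overlap with the ERSE matches. In Herpud1 it lies at positions -52 to -42, and in Dnajb11 at positions 7 to 17. The windows are chr8:94386179-94386478 (plus strand) for Herpud1 and chr16:22857595-22857894 (plus strand) for Dnajb11. Both are given with the free base in lower case:
Herpud1: ATTGGgCCACG
Dnajb11: ATTGGcCCACG

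The element UPRE is TGACG followed at once by TGG and is bound by XBP1 in other promoters. It was found in 0 of the 29 members and in 0.714% of all genes. The element CARE of ATF4 targets was searched as TGATG, 1 base of any kind and AAT, with the last base fixed. That form was found in 0 of the 29 members and in 1.08% of all genes. Forms with another last base were not counted. The Asns window holds TGATG, 1 base and AAC, and those of Chac1 and Herpud1 hold it on the opposite strand. The Trib3 window holds TGATG, 1 base and AAA, also on the opposite strand. The counts say only that the exact letters searched are not in these windows. The 8 members with an ERSE had no common sign. Of them 5 had a negative and 3 a positive log2 fold change, between -0.32 for Hspa5 and Creld2 and 0.25 for Dnajc3. A match is a description of the sequence and is no evidence of binding in these cells.

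Of the 4 disulfide isomerases, which form and reshuffle disulfide bonds in the ER, 1 stood apart. P4hb (ENSMUSG00000025130, chromosome 11, 120560298 to 120573253, minus strand) encodes PDI itself, which is also the beta subunit of collagen prolyl hydroxylase. It was at 360, 409 and 398 CPM in anti-LILRB4 libraries 1, 2 and 3, against 307, 309 and 280.2 CPM in control libraries 1, 2 and 3. All anti-LILRB4 libraries lay above all controls, with a gap wider than the spread among the controls. Its mean was 389 ± 25.9 CPM after anti-LILRB4 and 299 ± 16.1 CPM in controls (SD, n = 3 each), which is 0.38 ± 0.10 (SE) as a log2 fold change. In edgeR the unadjusted p was 0.00304 and the adjusted p 0.426, the smallest of the members. The adjusted p was 0.0347 in DESeq2 and 0.0326 in the authors' deposited table, and over all alternatives tried it lay between 0.0347 and 0.68. Leaving out single libraries kept the log2 fold change of P4hb between 0.34 and 0.44.

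Pdia3, the isomerase that works with calnexin and calreticulin, was at 1229, 1314 and 1226 CPM in anti-LILRB4 libraries and at 1168, 1208 and 1236 CPM in controls, with overlapping groups and a log2 fold change of 0.06. Pdia4 had a log2 fold change of 0.04. Pdia6, which reduces and so quiets activated IRE1, was at 719, 702 and 689 CPM in anti-LILRB4 libraries and at 803, 741 and 728 CPM in controls. The groups of Pdia6 did not overlap, yet the difference was small, with a log2 fold change of -0.11, a standard error of 0.08 and an adjusted p of 0.791 in edgeR. It was -0.06 without control library 1. Pdia6 and P4hb, members of 1 enzyme family, had log2 fold changes of opposite sign.

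Of the 7 sensors and transcription factors 4 had a positive and 3 a negative log2 fold change. Ern1, Atf6 and Eif2ak3 encode the 3 sensors, and their log2 fold changes were 0.08, 0.24 and 0.18 with standard errors of 0.25, 0.15 and 0.42. Without control library 1 those of Atf6 and Eif2ak3 were 0.13 and 0.36. Eif2ak3 varied most, at 3.06, 8.76 and 10.3 CPM in anti-LILRB4 libraries and at 8.05, 4.46 and 7.01 CPM in controls. Its lowest and its highest level both came from anti-LILRB4 libraries. Xbp1 was at 117, 121 and 156.5 CPM in anti-LILRB4 libraries and at 145, 118 and 129.5 CPM in controls, which is 0.01 ± 0.14 (SE) as a log2 fold change. The sign of Xbp1 turned with the scaling, at -0.02 under upper quartile scaling.

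Atf4, whose protein is controlled mainly at translation, was at 62.3, 51.2 and 67.4 CPM in anti-LILRB4 libraries and at 63.7, 61.6 and 72.1 CPM in controls, which is -0.13 ± 0.14 (SE) as a log2 fold change. Ddit3, encoding the factor CHOP of prolonged stress, was at 6.16, 5.84 and 4.71 CPM in anti-LILRB4 libraries and at 8.98, 4.76 and 5.74 CPM in controls. Its groups overlapped, control library 1 was the highest, and the log2 fold change of -0.22 became 0.09 without that library. Exons of Ddit3 overlap those of Mars and Gm4189 on the other strand. Atf5, a factor related to ATF4, was scarce, at 0.244, 0.631 and 0.486 CPM in anti-LILRB4 libraries against 1.76, 0.992 and 0.728 CPM in controls. Its groups did not overlap, but the lowest library held 11 reads, and the log2 fold change of -1.35 had a standard error of 0.62 and an adjusted p of 0.626 in edgeR. It was -0.92 without control library 1, and the exons of Atf5 overlap those of Nup62 and Il4i1.

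ER-associated degradation moves misfolded proteins out of the ER to the proteasome. The sign was negative for 5 of its 6 members; the median log2 fold change was -0.09 and 0 were called. Derl2 (ENSMUSG00000018442, chromosome 11, 71007164 to 71019841, minus strand), a membrane protein of the exit channel, was at 251, 224 and 299 CPM in anti-LILRB4 libraries and at 391.5, 299 and 308 CPM in controls. Anti-LILRB4 library 3 equalled control library 2 to the first decimal, and control library 1 was far the highest. On the log2 scale the difference was -0.37 ± 0.14 (SE) (unadjusted p 0.0269, adjusted p 0.561 in edgeR), and it was -0.23 without control library 1. Exons of Derl2 overlap those of Mis12.

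Syvn1, the ubiquitin ligase also named HRD1, was at 59.6, 72.9 and 71.3 CPM in anti-LILRB4 libraries, against 74.4, 88.4 and 80.6 CPM in controls. The groups were apart by a narrow margin, and here control library 1 was the lowest of the controls. The log2 fold change of Syvn1 was -0.26 ± 0.13 (SE), and -0.32 without control library 1. Exons of Syvn1 overlap those of Mrpl49. Sel1l, the adaptor that stabilizes this ligase, had a log2 fold change of -0.01. Derl1, Herpud1, a membrane protein of the same complex, and Edem1, which hands over glycoproteins for degradation, had log2 fold changes of -0.10, -0.08 and 0.03.

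Among the 5 ATF4 and stress-response targets, Chac1, Trib3 and Asns had the widest differences between libraries of all members, 10.9-fold, 9.555-fold and 8.02-fold between the highest and the lowest. The sign was negative for all 5 and the median log2 fold change was -0.82, yet 0 were called and 0 had an unadjusted p under 0.05. In 4 of them control library 1 was the highest of the 6, and without it their median was 0.17. Asns, encoding asparagine synthetase, was at 2.48, 1.82 and 4.27 CPM in anti-LILRB4 libraries and at 10.5, 1.31 and 3.25 CPM in controls. Its level in control library 1 was 4.61 times the mean of the other 2 controls, and its log2 fold change was -0.82 with all libraries (standard error 0.64) and 0.32 without that one.

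Trib3, a pseudokinase that dampens ATF4 signalling, was at 2.11, 0.736 and 0.801 CPM in anti-LILRB4 libraries and at 4.97, 0.521 and 1.16 CPM in controls. Control library 1 was 5.92 times the mean of the other 2 controls, and the log2 fold change of -0.87 became 0.53 without it. Chac1, which degrades glutathione, was at 2.48, 0.806 and 0.437 CPM in anti-LILRB4 libraries and at 4.77, 1.61 and 1.77 CPM in controls. For Chac1 the log2 fold change kept its sign, at -1.13 with all libraries (standard error 0.66) and -0.45 without control library 1.

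Sesn2, a stress-induced inhibitor of mTORC1, was at 13.6, 14.1 and 13.8 CPM in anti-LILRB4 libraries and at 23.5, 9.74 and 14.8 CPM in controls, so that the treated libraries lay within the range of the controls. Its log2 fold change was -0.21, and 0.17 without control library 1. Ppp1r15a, encoding GADD34, the phosphatase subunit that reverses eIF2 phosphorylation, did not follow the other targets. It was at 22.0, 22.1 and 17.3 CPM in anti-LILRB4 libraries and at 20.4, 26.1 and 21.1 CPM in controls, a log2 fold change of -0.14. Control library 1, high in the other 4 targets, had the lowest of the controls' values. That library also had the highest summed neutrophil marker level, 1334 CPM, while anti-LILRB4 library 2, at 1129 CPM, was at 1.82 CPM for Asns, below its group mean of 2.86 CPM. Monocyte markers also had their highest sum in control library 1, at 89.7 CPM, against 43.3 and 49.2 CPM in control libraries 2 and 3. In anti-LILRB4 libraries that sum was between 24.7 and 66.9 CPM. The part of neutrophils and monocytes in these values was not tested. In bulk RNA, fewer cells with a transcript and less of it per cell cannot be told apart.

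**Figure D3:**
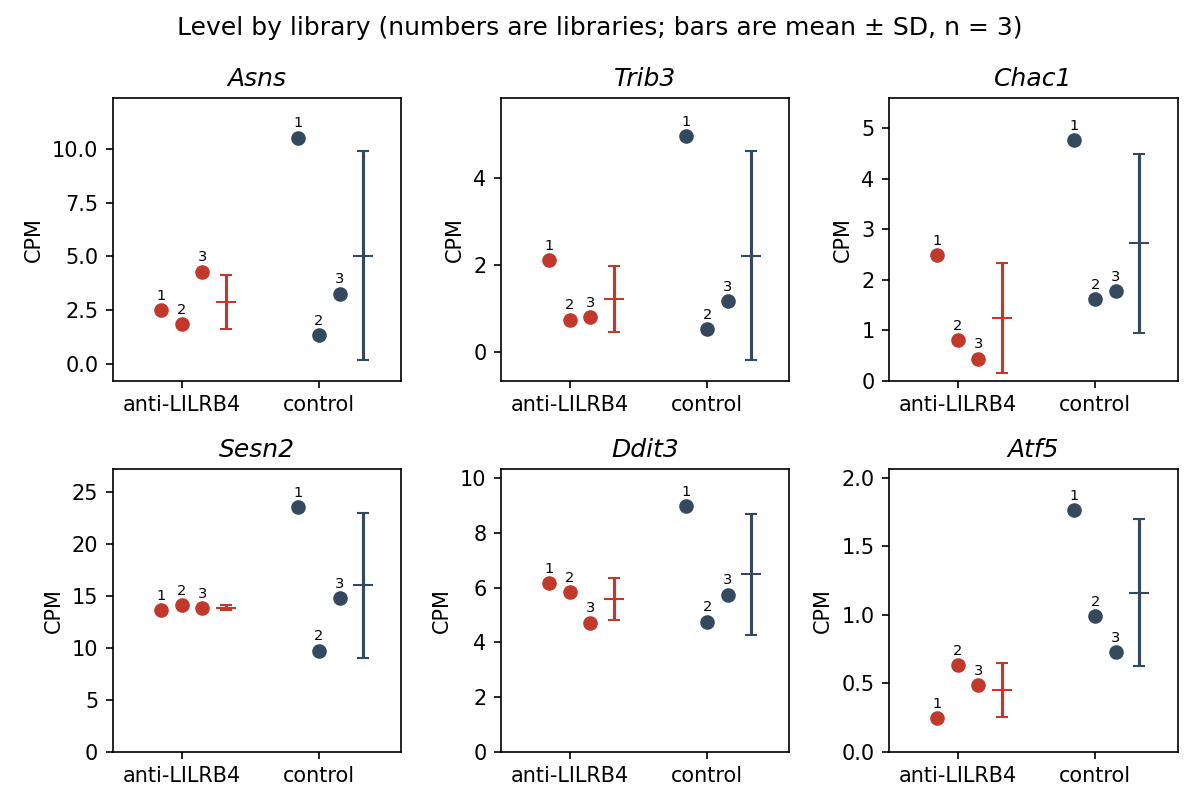
CPM of 6 integrated stress genes in each library, anti-LILRB4 on the left and control on the right, with the library number above each point and the mean ± SD (n = 3) beside it. Control library 1 is the highest point in all 6 panels, at 10.5 CPM for Asns and 4.97 CPM for Trib3, and the remaining points of each gene except Atf5 overlap between groups.

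Other genes of the same pathways were read from lists of related genes outside the set. Among 27 tested ATF4 targets, amino acid supply genes and tRNA synthetases, 0 were called, 15 had a positive and 12 a negative log2 fold change, and the median was 0.02. Control library 1 was the highest of the 6 in 7 of these 27 genes, beside 23.0% of all genes. These were Psat1, Cebpb, Slc7a11, Slc3a2, Slc7a5, Shmt2 and Nars, the last a tRNA synthetase gene. The genes of this list too low to be tested did not share 1 pattern. Cth was at 0.7235 CPM in control library 1 and had no reads in the others. Stc2 had reads in anti-LILRB4 libraries only, at up to 0.105 CPM. Vldlr was at 0.267 CPM in anti-LILRB4 library 3 and at 0.0452 CPM in control library 1, without reads elsewhere. Psat1, an enzyme of serine synthesis, was at 51.3, 31.4 and 31.8 CPM in anti-LILRB4 libraries and at 77.4, 46.9 and 41.6 CPM in controls, whereas Ddit4 and Slc7a11 differed less, with log2 fold changes of -0.03 and -0.15. The smallest p in the list was that of Iars, the isoleucyl-tRNA synthetase gene, at 45.6, 50.6 and 33.6 CPM in anti-LILRB4 libraries against 21.1, 31.5 and 31.1 CPM in controls (log2 fold change 0.63 ± 0.20 SE; adjusted p in edgeR, 0.506).

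Translocon, signal peptidase and oligosaccharyltransferase genes, which admit and glycosylate new proteins, were negative in sign in 14 of 20, and their median log2 fold change was -0.12, or -0.05 without control library 1. In this list 0 genes were called, 3 were lower and 1 higher at an unadjusted p under 0.05, beside 8.03% of all genes in both directions, and 12 had their highest level in control library 1, beside 23.0% of all genes. Sec61g, a subunit of the translocon, had the smallest p, at -0.37 ± 0.13 (SE) in log2 fold change and an edgeR adjusted p of 0.523. Rpn2, a subunit of the oligosaccharyltransferase, went the other way, at 0.32. Their summed level was between 5284 and 5787 CPM in anti-LILRB4 libraries and between 5848 and 6268 CPM in controls.

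Of 22 other folding and glycan quality control genes 0 were called, 10 had a positive and 12 a negative log2 fold change, and the median was -0.05. Prkcsh, the beta subunit of glucosidase II, had the smallest p, at 27.9, 37.4 and 28.2 CPM in anti-LILRB4 libraries against 21.1, 21.7 and 18.4 CPM in controls, which is 0.61 ± 0.17 (SE) as a log2 fold change. Its adjusted p was 0.450 in edgeR and 0.0483 in DESeq2. Ganab, the alpha subunit of the same enzyme, had a log2 fold change of -0.25. The 19 other ER-associated degradation genes had a median of 0.06 with 0 called. Os9, a lectin that delivers glycoproteins to the ligase complex, had the smallest p. Its log2 fold change was 0.90 ± 0.29 (SE), with an edgeR adjusted p of 0.506, and 0.71 without control library 1. Os9 was at 53.9, 132.6 and 83.3 CPM in anti-LILRB4 libraries and at 35.2, 53.1 and 56.8 CPM in controls, with overlapping groups. Neither the 6 tested sensors and membrane-bound factors (median 0.05, smallest p for Creb3l2, at 0.32) nor the 10 genes of eIF2 kinases, eIF2 and eIF2B (median -0.09, smallest p for Eif2b1, at -0.32) held a called gene.

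**Figure D4:**
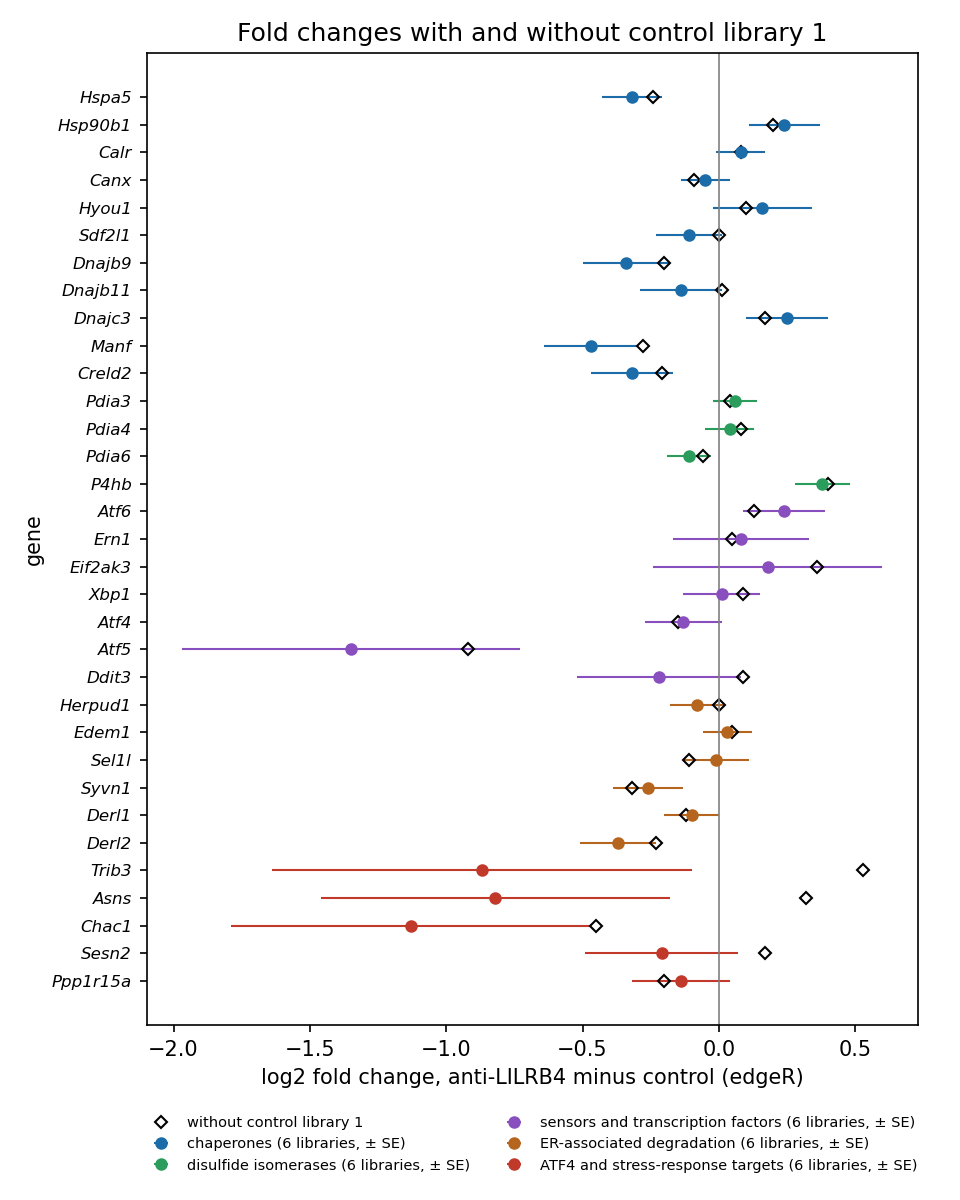
Log2 fold change, anti-LILRB4 minus control, of the 33 member genes by role, with all 6 libraries (filled circles, bars ± SE) and without control library 1 (open diamonds). P4hb moved little, to 0.40, whereas Trib3, Asns, Sesn2, Ddit3 and Dnajb11 crossed 0.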

How the data were processed

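Per the file headers, the deposited count table lists unnormalized whole reads for each Ensembl identifier. DESeq2 1.38.3, Salmon, STAR and featureCounts of Subread appear in the submitters' processing notes, with no role stated. Genome build, annotation and multi-mapping rules: not given in the sources used here. The second table, per the file headers a DESeq2 result of the authors, holds for each gene a mean signal (normalized counts), a log2 fold change with its error, a score that divides the one by the other, and p-values raw and adjusted.

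Of the deposited counts 287 repeated rows were dropped. edgeR 4.0.16 (R 4.3.3) was run with filterByExpr (minimum count 10), TMM scaling and a quasi-likelihood F test with treatment as the single term, adjusted over 18210 genes. SE values were obtained as |log2 fold change| over √F. Log2 CPM used a prior count of 2. DESeq2 1.42.0 and limma 3.58.1 (voom) were alternatives, with other scalings, filters, a robust fit, a replicate block, and each library left out. No replicate pair agreed within sampling noise. Coordinates, exon lengths and overlaps are those of GENCODE M21 (GRCm38), joined by identifier. In all, 12 members have exons overlapping another gene.

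The members and lists were chosen with earlier results of these data known. Values by library are given for members whose groups did not overlap or whose unadjusted p was under 0.05, for Hspa5, Xbp1, Atf4 and Ddit3, and for the 3 with the highest level per kilobase. The ATF4 targets, Hsp90b1, Eif2ak3, Psat1 and the markers named were added after their values were seen. Of the other pathway genes named, Iars, Sec61g, Prkcsh, Os9, Creb3l2 and Eif2b1 had the smallest p of their lists. Cebpb, Slc3a2, Slc7a5, Shmt2 and Nars were named for the library in which they were highest. Cth, Stc2 and Vldlr are the genes of the list of other ATF4 targets that were too low to be tested. Rpn2, Ganab, Ddit4 and Slc7a11 were also chosen after their values were seen. Plots used matplotlib 3.10.9 (Python 3.11.15).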

Additional observations from a re-analysis of the deposited data

How the results depend on the processing

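Over all genes edgeR called 0, DESeq2 called 169 and edgeR without the low-count filter called 300. Of the members, edgeR called 0, DESeq2 called 1 (P4hb, adjusted p 0.0347) and edgeR with no filter called 1 (Manf, log2 fold change -0.47, adjusted p 0.0434; range over its alternatives 0.0434 to 0.792). limma-voom, the other scalings, the stricter filter, the robust fit and an adjusted p of 0.1 called 0 members, as did every fit that left out a library. The median log2 fold change of the members was between -0.14 and -0.09 under the scalings, tools and filters and between -0.15 and 0.01 when single libraries were left out. Xbp1 turned to -0.02 under upper quartile scaling and to -0.01 in limma-voom, and its range without single libraries was -0.13 to 0.09. Ddit3 ranged between -0.39 and 0.09. The cause was not tested. Of 33 members, 20 kept their sign whichever library was left out. The scalings moved the median of all genes by at most 0.0307 (log2). A replicate block left 0 genes and 0 members called, with P4hb at an adjusted p of 0.361 in edgeR and a members' median of -0.10. Deviations of same-numbered libraries correlated at 0.0136, 0.0290 and -0.0138 over all genes. The labels name replicates only by number, and a pairing that leaves little trace over all genes would not be seen this way. Atf5, Chac1 and Trib3 had the fewest reads, with 11 to 78, 18 to 211 and 21 to 220 per library.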

Other observations

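P4hb and Hspa5, encoding a disulfide isomerase and the chaperone BiP of the same compartment, differed in opposite directions, and their ratio within a library does not depend on the scaling between libraries. P4hb divided by Hspa5 (CPM over CPM) was 0.425, 0.505 and 0.421 in anti-LILRB4 libraries 1, 2 and 3, against 0.254, 0.320 and 0.260 in control libraries 1, 2 and 3. That the groups do not overlap follows from the values of the 2 genes, which each separate the groups in opposite directions, and adds no support to them. The pair was chosen after its values were seen, so no test is given.

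Retnlg, a transcript of mature neutrophils, was at 0.0443, 0.473 and 1.77 CPM in anti-LILRB4 libraries and at 25.7, 5.58 and 7.83 CPM in controls, while Ngp, of immature neutrophils, was at 31.96, 382 and 52.4 CPM in anti-LILRB4 libraries and at 265, 154 and 137 CPM in controls. Control library 1, which had the highest Asns, Trib3 and Chac1, was the highest of the 6 for Retnlg and anti-LILRB4 library 2 for Ngp. The part of these cells in the ER and stress genes was not tested. These 2 genes were chosen after their values were seen.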
